A study of Mus musculus with 24 samples.

Results

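Lpin1, Lpin2, Lpin3 and Ppargc1a, the 3 genes of the lipin family and the gene of the lipin 1 partner PGC-1α, were followed in liver RNA of mice that had lost Lpin1 in adipocytes. These 4 genes were taken by symbol from 41388 counted genes. Livers came from male mice on a C57BL/6J background, 8 weeks old when the diets began, in 4 groups of 5 mice. Adn-Lpin1-/- mice carried a floxed Lpin1 allele on both chromosomes and a Cre recombinase driven by the adiponectin promoter, which is active in adipocytes, and their WT littermates carried both floxed alleles without Cre. Each genotype was fed a low-fat diet (LFD, 10% of calories from fat) or a high-fat diet (HFD, 60%), for 16 weeks by the sample labels and for a shorter time by the study's methods, and all mice were fasted for some hours from the morning before collection. RNA was selected on poly-A tails, and the reads assigned to genes ranged from 36260187 to 81072794 per mouse. The LFD livers of WT mice were the shallowest, with a median of 40777580 counts, and the HFD livers of Adn-Lpin1-/- mice the deepest, with a median of 62306028.

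Lipins are phosphatidic acid phosphatases. They remove the phosphate from phosphatidic acid to give diacylglycerol, the precursor of triglyceride and of the main phospholipids, and they move between the cytosol, the endoplasmic reticulum and the nucleus. In liver, lipin 1 also enters the nucleus and acts with PGC-1α, a coactivator induced by fasting, and with PPARα on genes of fatty acid oxidation. The Lpin1 gene responds to glucocorticoids and cAMP in fasting, whereas lipin 2 is regarded as the main lipin of the fed hepatocyte. Lipin 3 has the least studied role of the family.

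Lpin1 (ENSMUSG00000020593) was counted on chromosome 12, from 16535669 to 16589770 on the minus strand of GRCm38. Lpin2 (ENSMUSG00000024052) lies on chromosome 17, from 71182560 to 71249817 on the plus strand. Lpin3 (ENSMUSG00000027412) lies on chromosome 2, from 160880670 to 160906002 on the plus strand, and Ppargc1a (ENSMUSG00000029167) on chromosome 5, from 51454249 to 51567725 on the minus strand. All 4 are protein coding, and counts were summed over their exons, 5725 bases for Lpin1, 12233 for Lpin2, 3694 for Lpin3 and 6641 for Ppargc1a. The exons of no other counted gene overlapped them. The counted Lpin1 gene ended 21196 bases short of the RefSeq start site at 16610966, so that reads on upstream exons were left out of its count.

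The 250 bases before a RefSeq start site (GRCm38.p6) are given for Lpin1, Lpin2 and Ppargc1a, the members that ran together between mice in the pairs described further on. Capitals mark 4 short motifs searched on both strands: TGACG, the core of the cAMP response element; CACGTG, the E-box; AGGTCA, a hexamer bound by nuclear receptors; and AGAACA, the hexamer bound by the glucocorticoid receptor. A motif on the other strand reads as its reverse complement.
Lpin1, chr12:16610967-16611216, minus strand: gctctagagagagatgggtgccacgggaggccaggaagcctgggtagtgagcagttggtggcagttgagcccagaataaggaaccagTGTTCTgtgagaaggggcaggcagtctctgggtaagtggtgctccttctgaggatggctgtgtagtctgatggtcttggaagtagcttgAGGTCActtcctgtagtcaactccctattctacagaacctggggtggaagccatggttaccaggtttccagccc
Lpin2, first of 3 start sites, chr17:71183282-71183531, plus strand: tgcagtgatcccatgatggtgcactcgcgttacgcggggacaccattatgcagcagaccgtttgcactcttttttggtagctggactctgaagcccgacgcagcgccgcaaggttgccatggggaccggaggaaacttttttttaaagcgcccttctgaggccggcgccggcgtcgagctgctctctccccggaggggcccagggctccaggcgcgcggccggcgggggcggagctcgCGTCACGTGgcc
Ppargc1a, chr5:51567726-51567975, minus strand: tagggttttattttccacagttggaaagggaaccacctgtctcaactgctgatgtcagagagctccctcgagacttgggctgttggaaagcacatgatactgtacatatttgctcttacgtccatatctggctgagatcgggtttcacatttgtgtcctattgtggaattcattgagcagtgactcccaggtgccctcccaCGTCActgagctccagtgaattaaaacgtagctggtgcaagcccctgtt
Over all 7 windows of the 4 members there were 7 matches. The Lpin1 window held the glucocorticoid receptor hexamer from base -163 and the nuclear receptor hexamer from base -74, counted from the start site. In the Lpin2 window, TGACG from base -12 overlapped the E-box from base -9, and the Ppargc1a window held TGACG from base -49. The glucocorticoid receptor hexamer was also in the first Lpin3 window, from base -245, and in the third Lpin2 window, from base -203. Such matches are common. Of 32851 RefSeq promoter windows of this length, 17.8% held TGACG, 6.02% the E-box, 14.02% AGGTCA and 16.1% AGAACA, so that a match describes the letters and no more.

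Lpin1 and Lpin2 were abundant in liver and Lpin3 and Ppargc1a were scarce. Levels between genes were compared on the deposited RPKM, which divides by exon length. Lpin1 averaged 68.4 ± 44.9 RPKM (SD, n = 20 mice), with a range of 22.5 to 208, and Lpin2 averaged 32.3 ± 7.83 RPKM, with a range of 21.9 to 47.5. Lpin3 averaged 1.83 ± 0.349 RPKM and Ppargc1a 1.88 ± 0.432 RPKM. Lpin1 was above Lpin2 in 17 of 20 mice, by a median ratio of 1.90, and the exceptions were 1 WT and 2 Adn-Lpin1-/- mice on the HFD. Lpin2 was above Lpin3 in 20 of 20 mice, by at least 11.1 times. Lpin3 and Ppargc1a changed places from mouse to mouse, with Lpin3 higher in 12 of 20, and did not differ beyond their spread.

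**Figure D1:**
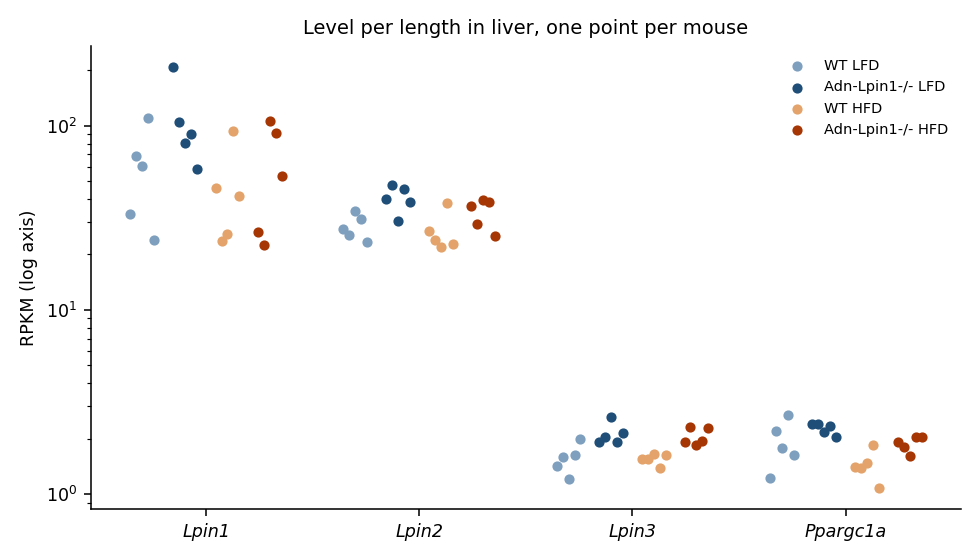
RPKM (log axis) of the 4 genes in liver, 1 point per mouse, coloured by group. Lpin1 spans 22.5 to 208 RPKM and Lpin2 21.9 to 47.5, while all values of Lpin3 and Ppargc1a lie between 1.08 and 2.70.

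Of the summed RPKM of the 3 lipins, Lpin1 made up 62.3% ± 11.6 (SD, n = 20), Lpin2 35.6% ± 10.7 and Lpin3 2.17% ± 1.02. The share of Lpin1 was lowest in an Adn-Lpin1-/- mouse on the HFD, at 40.9%, and highest in an Adn-Lpin1-/- mouse on the LFD, at 83.2%. On the LFD the Lpin1 share averaged 62.7% ± 12.0 for WT and 69.3% ± 8.89 for Adn-Lpin1-/- mice (SD, n = 5). The HFD averages were 59.1% ± 8.91 for WT and 57.9% ± 15.3 for Adn-Lpin1-/- mice. By mean share of RPKM, Lpin1 was thus the leading lipin message in every group, and its share overlapped between all of them.

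The first comparison asked whether liver lipin messages differed between Adn-Lpin1-/- and WT mice on the same diet. Cre was driven by a promoter of adipocytes and not of hepatocytes, and adipocyte markers in the liver samples differed from each other. Plin1, the perilipin of adipocyte droplets, reached at most 5 counts in any mouse, and Lep, which encodes leptin, at most 4. Adipoq, which encodes adiponectin, ranged from 0 to 168 counts, with the highest in a WT LFD mouse and at most 8 in Adn-Lpin1-/- mice. Cfd, which encodes adipsin, went the other way and reached 12304 counts in an Adn-Lpin1-/- HFD mouse, and Adrb3, the adrenergic receptor of adipocytes, had 215 to 740 counts. How much of the Lpin1 count came from adipocytes was not tested, and that count was not used as a check of the deletion. The deposited counts are per gene and not per exon.

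Values between mice were compared as CPM, the count scaled to library size with the TMM factor. Lpin1 in WT LFD livers was 198, 405, 371, 673 and 142 CPM for mice 1 to 5. In Adn-Lpin1-/- LFD livers it was 1195, 590, 453, 512 and 322 CPM. Mouse 1 of that group stood highest of all 20, and the other 4 lay within the WT range. The fitted log2 fold change of Adn-Lpin1-/- over WT on the LFD was 0.78 (SE 0.49, 95% interval -0.25 to 1.81, edgeR quasi-likelihood adjusted p = 0.314), and without mouse 1 it was 0.39 (edgeR adjusted p = 0.643). On the HFD, Lpin1 was 275, 137, 153, 556 and 252 CPM in WT and 140, 120, 580, 533 and 285 CPM in Adn-Lpin1-/- mice. Both groups held low and high mice, and the log2 fold change was 0.27 (SE 0.49, interval -0.75 to 1.30, edgeR adjusted p = 0.734). It was -0.03 without Adn-Lpin1-/- mouse 3 and 0.69 without WT mouse 4.

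Lpin2 varied much less. On the LFD it was 349, 324, 455, 403 and 297 CPM in WT and 493, 572, 364, 552 and 451 CPM in Adn-Lpin1-/- mice. Of the Adn-Lpin1-/- mice, 3 lay above every WT mouse, mouse 5 lay just under the highest of them and mouse 3 within the WT range. The log2 fold change was 0.41 (SE 0.17, interval 0.06 to 0.76), with an unadjusted p of 0.0243 and an adjusted p of 0.109 in the edgeR test over all genes. On the HFD, Lpin2 was 343, 297, 275, 482 and 296 CPM in WT and 412, 333, 462, 482 and 290 CPM in Adn-Lpin1-/- mice. These ranges overlapped nearly fully, with a log2 fold change of 0.23 (SE 0.17, edgeR adjusted p = 0.370), or 0.13 without Adn-Lpin1-/- mouse 4, 0.15 without WT mouse 3 and 0.38 without WT mouse 4.

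Lpin3 came closest to the threshold. On the LFD it was 5.51, 6.10, 4.83, 6.38 and 7.72 CPM in WT and 7.14, 7.44, 9.49, 7.04 and 7.62 CPM in Adn-Lpin1-/- mice. The WT mouse 5 alone reached the Adn-Lpin1-/- range. The log2 fold change was 0.34 (SE 0.12, interval 0.10 to 0.58), with an edgeR adjusted p of 0.0519, and was 0.44 without WT mouse 5 (edgeR adjusted p = 0.0126) and 0.26 without Adn-Lpin1-/- mouse 3 (0.145). Of other tests, DESeq2 called it with an adjusted p of 0.0319. Voom with quality weights, the study's method, run here on the single mice alone, called it with 0.0201. With the pooled libraries added, voom did not call it (0.23, adjusted p = 0.0724). On the HFD, Lpin3 was 5.98, 5.84, 6.29, 5.35 and 6.47 CPM in WT and 6.56, 7.93, 6.47, 7.34 and 7.87 CPM in Adn-Lpin1-/- mice. There the highest WT value (6.471) and the lowest Adn-Lpin1-/- value (6.472) touched, and the log2 fold change was 0.27 (SE 0.11, interval 0.03 to 0.51, edgeR adjusted p = 0.102). Lpin3 rests on 162 to 634 counts per mouse and has 55.7% GC in its transcript. The trend of expression with GC content differed between the genotypes, with a slope of -0.068 log2 units per 10% GC in WT LFD and 0.082 in Adn-Lpin1-/- LFD livers, and with that trend removed the Lpin3 fold changes were 0.20 on the LFD (edgeR adjusted p = 0.247) and 0.11 on the HFD (0.516).

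Ppargc1a on the LFD was 8.49, 15.1, 12.7, 19.02 and 11.3 CPM in WT and 16.1, 15.8, 14.2, 15.4 and 13.1 CPM in Adn-Lpin1-/- mice. The knockout mice lay inside the wider WT range, with an SD of 1.25 CPM against 3.98, and the log2 fold change was 0.16 (SE 0.16, edgeR adjusted p = 0.536), or 0.04 without WT mouse 1 and 0.32 without WT mouse 4. On the HFD it was 9.78, 9.36, 10.1, 12.8 and 7.64 CPM in WT and 11.8, 11.2, 10.2, 13.8 and 12.7 CPM in Adn-Lpin1-/- mice. All 5 knockout values exceeded the WT median, but the ranges overlapped and the log2 fold change was 0.26 (SE 0.16, edgeR adjusted p = 0.265), or 0.17 without WT mouse 5. With the GC trend removed, Ppargc1a was 0.28 on the LFD (edgeR adjusted p = 0.232) and 0.36 on the HFD (0.106). The same setting gave 0.72 and 0.22 for Lpin1 and 0.35 and 0.17 for Lpin2, and none of these was called.

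Counted together, 0 of the 4 genes were called by genotype on the LFD or on the HFD at an edgeR adjusted p of 0.05, against 14.4% of the 13052 genes tested on the LFD and 18.6% on the HFD, while DESeq2 and voom without the pools each called Lpin3 on the LFD. Voom with the pooled libraries added, which repeat RNA of the same mice, called Lpin2 on the LFD (0.44, adjusted p = 0.00511). At an unadjusted p under 0.05 there were Lpin2 and Lpin3 on the LFD and Lpin3 on the HFD, where 28.9% and 33.2% of all genes tested were so placed. All 8 fitted genotype differences of the members were above 0, while the median over all genes tested was 0.01 on the LFD and 0.00 on the HFD. These 8 values come from 4 genes in the same mice and are not independent. That of Lpin1 on the HFD was -0.03 without Adn-Lpin1-/- mouse 3. In bulk liver, a lower level of a hepatocyte gene cannot be told apart from a smaller share of hepatocyte RNA. This bears on the genes called lower further on. The part of cell shares in the fitted genotype differences of the members was not tested. On the LFD the summed hepatocyte markers were 126600 ± 2865 CPM for WT and 108200 ± 11170 for Adn-Lpin1-/- mice (SD, n = 5). On the HFD they were 129800 ± 10110 and 100300 ± 12100 CPM.

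**Figure D2:**
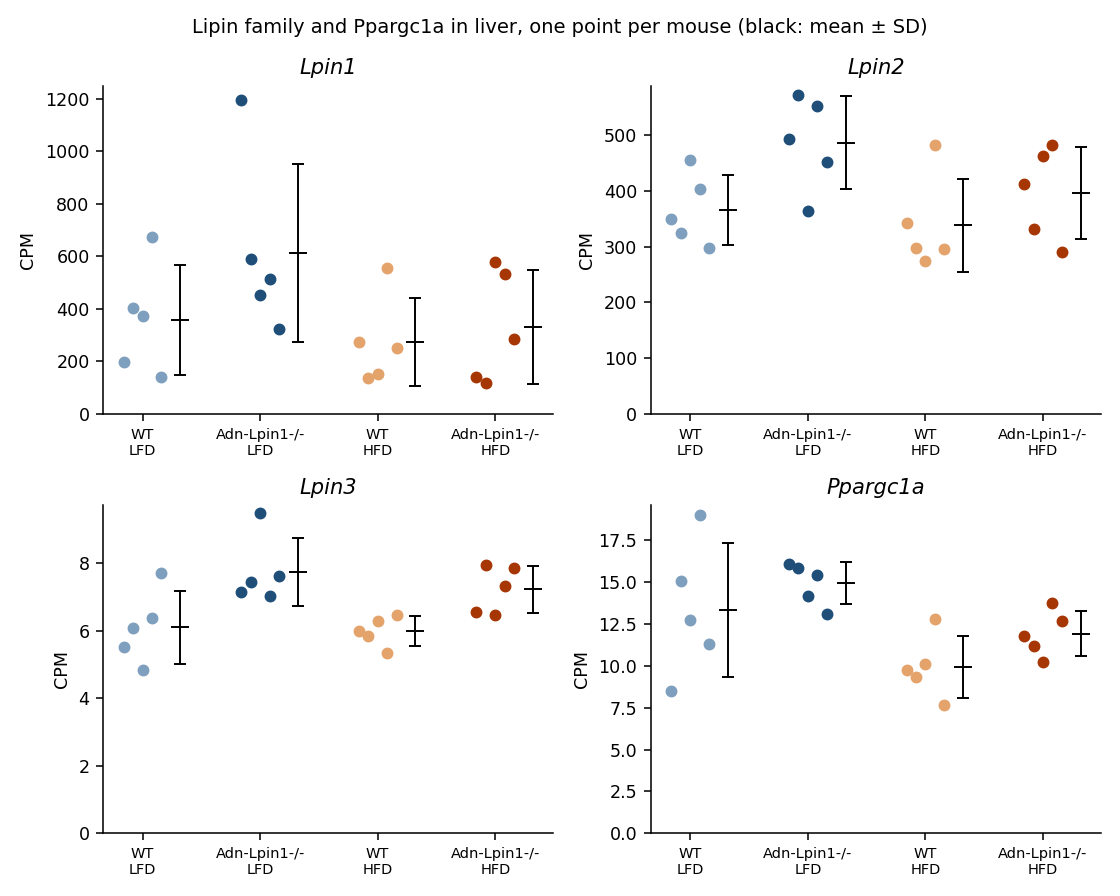
CPM of Lpin1, Lpin2, Lpin3 and Ppargc1a in liver, 1 point per mouse in the order of mice 1 to 5, with the group mean ± SD in black (n = 5). Lpin1 spreads from 120 to 1195 CPM with partial overlap of the groups, and Lpin3 on the HFD is the panel where WT and Adn-Lpin1-/- values only touch.

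The second comparison asked whether the members differed between HFD and LFD within a genotype. Ppargc1a came nearest to a call, with a log2 fold change of -0.43 in WT (SE 0.16, interval -0.76 to -0.09), from a mean of 13.3 to 9.93 CPM, with an unadjusted p of 0.0162 and an edgeR adjusted p of 0.202, and without WT LFD mouse 4 it was -0.26 (edgeR adjusted p = 0.469). In Adn-Lpin1-/- mice the log2 fold change was -0.32 (SE 0.16, edgeR adjusted p = 0.324), from 14.9 to 11.9 CPM, and there only mouse 4 on the HFD, at 13.8 CPM, reached the LFD range. For Lpin1 the log2 fold change was -0.38 in WT (SE 0.49, edgeR adjusted p = 0.758) and -0.89 in Adn-Lpin1-/- mice (SE 0.495, interval -1.92 to 0.14, edgeR adjusted p = 0.392). Single mice moved these values. In WT it was -0.02 without LFD mouse 4 and -0.81 without HFD mouse 4, and in Adn-Lpin1-/- mice -0.51 without LFD mouse 1 and -1.19 without HFD mouse 3. For Lpin2 it was -0.11 in WT (edgeR adjusted p = 0.799, from -0.27 without HFD mouse 4 to -0.02 without LFD mouse 3) and -0.30 in Adn-Lpin1-/- mice (0.402). Lpin3 had values of -0.03 in WT (0.930) and -0.10 in Adn-Lpin1-/- mice (0.720), the latter -0.02 without LFD mouse 3.

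By edgeR none of the 4 was called by diet, against 1.1% of genes called in WT and 2.46% in Adn-Lpin1-/- mice. Ppargc1a in WT was the 1 case at an unadjusted p under 0.05, where 15.8% of all genes were in WT and 16.1% in Adn-Lpin1-/- mice. Voom with the pooled libraries added, which repeat RNA of the same mice, called Ppargc1a in both genotypes (adjusted p = 0.0373 and 0.0406) and Lpin1 in Adn-Lpin1-/- mice (0.0361). The genotype by diet interaction, the test of whether the genotype difference itself changed with diet, was -0.51 for Lpin1 (SE 0.70, edgeR adjusted p = 0.926), -0.19 for Lpin2 (0.919), -0.07 for Lpin3 (0.963) and 0.10 for Ppargc1a (0.962). The interaction called 0 of 13052 genes (0.0%), with 938 at an unadjusted p under 0.05, and 28 genes by DESeq2's Wald test. The interval of the Lpin1 interaction ran from -1.96 to 0.94 on the log2 scale, and without WT HFD mouse 4 or WT LFD mouse 4 its value was -0.09 or -0.88. For Lpin2 the interaction was -0.03 without WT HFD mouse 4 and -0.28 without WT LFD mouse 3.

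**Figure D3:**
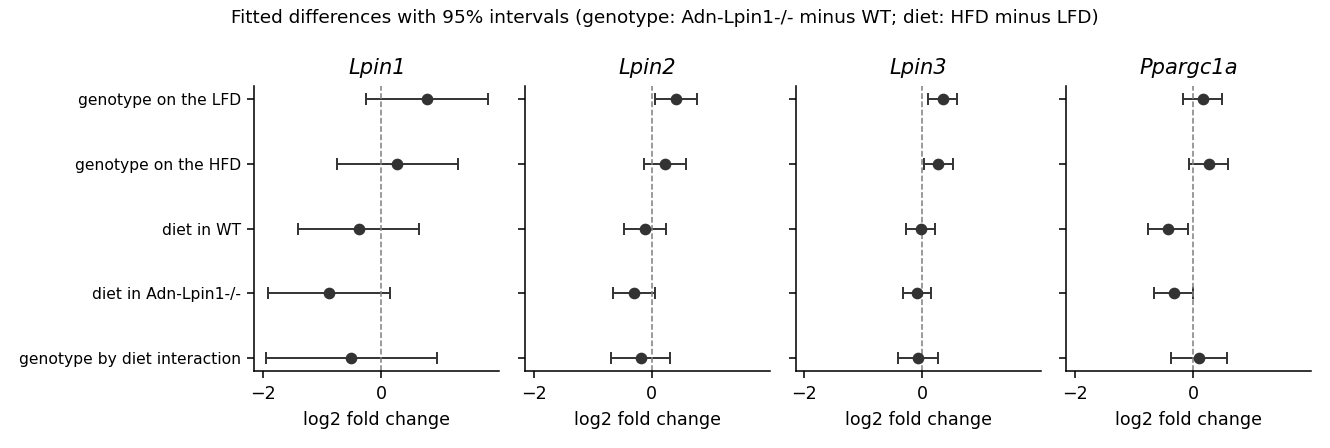
Fitted log2 fold changes of the 4 genes (x axis) in the 5 comparisons (rows), with 95% intervals from the edgeR fit over 20 mice. Every interval of Lpin1 crosses 0, and those of Lpin3 lie above 0 in both genotype comparisons while its adjusted p stayed above 0.05.

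Mice of the same group differed far more in Lpin1 than in most genes. Its SD within groups was 0.87 on the log2 scale, above 98.9% of all genes tested and above 98.2% of the 276 genes of a similar mean level, whose median SD was 0.15. Within a group the highest mouse had between 3.71 and 4.84 times the CPM of the lowest. The SD of Lpin2 was 0.29, that of Ppargc1a 0.28 and that of Lpin3 0.18, beside a median of 0.19 over all genes tested. Ppargc1a spread most in WT LFD (0.44) and least in Adn-Lpin1-/- LFD livers (0.12). Libraries made from RNA pooled over the mice of a group averaged this spread out, and their RPKM lay inside the range of the single mice for 15 of 16 values. The exception was Lpin3 in the Adn-Lpin1-/- LFD pool, at 1.89 RPKM against 1.91 to 2.62 in the mice.

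The spread between mice was shared between members. Each of 6 pairs was compared over the 20 mice after removal of the group means, by 100000 permutations of mice within groups, two-sided, with Benjamini-Hochberg adjustment over the 6. Lpin2 and Lpin3 ran in opposite directions, with r = -0.73 (permutation adjusted p = 0.00264) and rho = -0.77 (permutation adjusted p = 0.00492). Within groups of 5, given as a description, r was -0.77 and -0.88 for WT and Adn-Lpin1-/- mice fed the LFD and -0.87 and -0.72 for those fed the HFD, and without the 2 mice farthest from the median of Lpin2 it was -0.73. With the group means kept, r over the 20 mice was -0.02, and both genes had higher means in Adn-Lpin1-/- than in WT mice on each diet. In the Adn-Lpin1-/- LFD group, mouse 3 had the lowest Lpin2 (364 CPM) and the highest Lpin3 (9.49 CPM), and in WT LFD mouse 5 had the lowest Lpin2 (297 CPM) and the highest Lpin3 (7.72 CPM).

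Lpin1 ran with Lpin2 and with Ppargc1a. For Lpin1 and Lpin2, r was 0.61 (permutation adjusted p = 0.0314) and rho 0.59 (permutation adjusted p = 0.0334), with r = 0.55 without the 2 farthest mice and 0.31 to 0.92 within groups. For Lpin1 and Ppargc1a, r was 0.56 (permutation adjusted p = 0.0314) and rho 0.62 (permutation adjusted p = 0.0333), with r = 0.55 without the 2 farthest mice, and it ranged from 0.14 in Adn-Lpin1-/- HFD to 0.85 in WT LFD. Mouse 4 of the WT HFD group was the highest of its group in Lpin1, Lpin2 and Ppargc1a and the lowest in Lpin3. Without that mouse the Lpin1 pairs no longer passed, with r = 0.52 for Lpin2 and 0.48 for Ppargc1a (permutation adjusted p = 0.1265 for both). The first was also lost without WT LFD mouse 4 or 5 or Adn-Lpin1-/- HFD mouse 4 (r = 0.57 to 0.61), and the second without WT LFD mouse 1, 2, 3 or 4, Adn-Lpin1-/- LFD mouse 1 or 5 or Adn-Lpin1-/- HFD mouse 4 (r = 0.47 to 0.57). On log2 of RPKM plus 1 both Lpin1 pairs fell short, with r = 0.56 and 0.52 (permutation adjusted p = 0.0623 for both). The other 3 pairs did not pass, with r = 0.37 for Lpin2 and Ppargc1a, -0.35 for Lpin1 and Lpin3, and -0.04 for Lpin3 and Ppargc1a (permutation adjusted p = 0.184, 0.199 and 0.919).

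Library measures moved with some of these levels. Across the same mice, the total count had r = -0.51 with Lpin2 and 0.41 with Lpin3, and with the total count regressed out the Lpin2 and Lpin3 relation was -0.67 (permutation adjusted p = 0.0065). The same regression gave r = 0.77 for Lpin1 and Lpin2 (permutation adjusted p = 0.0021). For Lpin1 and Ppargc1a it gave 0.60 (permutation adjusted p = 0.0171). The scaling factor of a library had r = -0.63 with Lpin1 and -0.49 with Lpin2, and with it regressed out r was 0.45 for Lpin1 and Lpin2 (permutation adjusted p = 0.130) and 0.56 for Lpin1 and Ppargc1a (permutation adjusted p = 0.110), so that both fell short of the threshold. Summed macrophage markers, led by Cd5l, had r = -0.48 with Lpin1, -0.46 with Lpin2 and 0.25 with Lpin3. Their part in the relations was not tested.

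**Figure D4:**
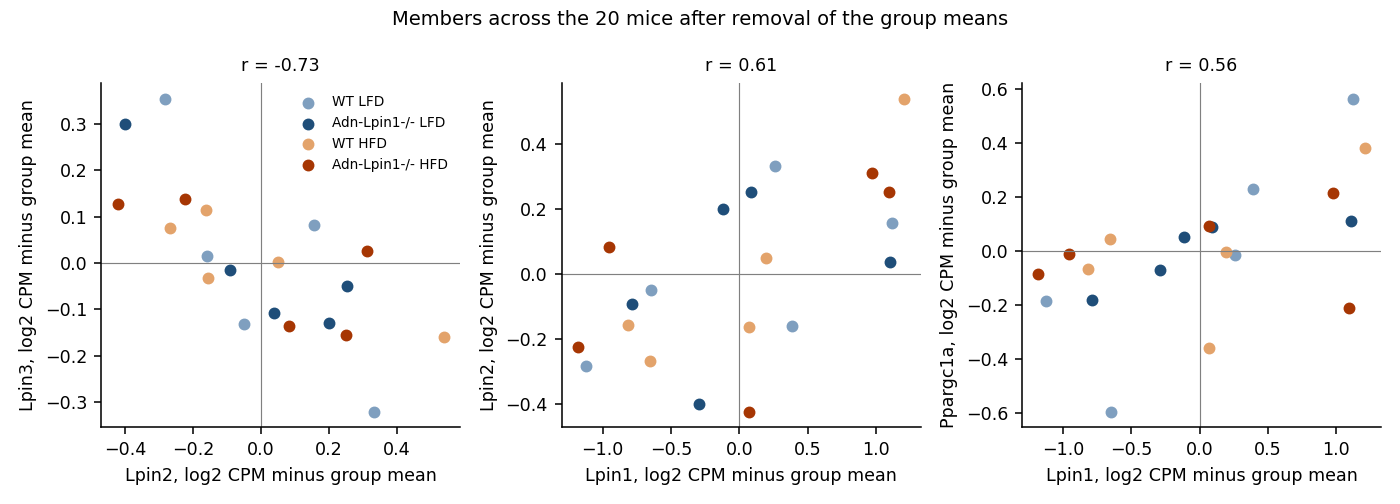
Log2 CPM minus the group mean in the 20 mice for Lpin2 and Lpin3, Lpin1 and Lpin2, and Lpin1 and Ppargc1a, coloured by group. Lpin3 falls as Lpin2 rises (r = -0.73), while Lpin2 and Ppargc1a rise with Lpin1 (r = 0.61 and 0.56).

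Genes whose pattern was most like each member were ranked by r over the 20 mice with group means removed, as a description. For Lpin1 they were Ell2, an elongation factor of RNA polymerase II (r = 0.86), Fip1l1, a subunit of the polyadenylation machinery (0.84), Slc38a2, a neutral amino acid transporter (0.81), Hs6st1, a heparan sulfate sulfotransferase (0.80), and Prpf4b, a kinase of the splicing machinery (0.80). With group means kept, Ell2 still led (0.81) and Pck1, the phosphoenolpyruvate carboxykinase of gluconeogenesis, was among the top 5 (0.77). For Lpin2 the nearest were Cln8, an endoplasmic reticulum membrane protein (0.88), Phf3 (0.87), Cpeb2, a regulator of translation (0.86), Susd6 (0.85) and Slc35g1 (0.84), and Cln8 led with group means kept (0.91), followed by Nr1i2, the pregnane X receptor (0.84). For Lpin3 they were Trdmt1, a tRNA methyltransferase (0.85), Acpp (0.83), Accs (0.80), Casp6, a caspase (0.78), and Ccdc66 (0.78). For Ppargc1a they were Pde4dip (0.80), Ell2 again (0.75), Rbm48 (0.74), Ms4a8a (0.74) and Fbxo11, an F-box protein (0.72).

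Many fasting and glucocorticoid response genes had r above 0 with Lpin1 and Lpin2 between mice. Of 21 such genes tested, 15 had r above 0 with Lpin1 and 18 with Lpin2, with medians of 0.40 and 0.51, beside medians of -0.02 and 0.00 over all genes tested. Hepatocyte markers had like values with Lpin1, with medians of 0.40 with Lpin1 and 0.15 with Lpin2, with 9 of 10 above 0 for each. Pck1 had r = 0.72 with Lpin1 and 0.71 with Lpin2, and Tat, the tyrosine aminotransferase, 0.62 and 0.70. With Lpin3 the median was -0.28. The highest r with Lpin1 in the list was that of Zbtb16 (0.80) and the lowest those of Lcn2 (-0.55) and Gadd45b (-0.35), 3 genes singled out after their values were seen. For PPARα and PGC-1α target genes the median r was 0.33 with Lpin2 and -0.25 with Lpin1, with 27 and 5 of 29 above 0. These genes come from the same libraries as the members and were not tested as a set.

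By genotype, the fasting list moved little past the threshold. On the LFD 1 of 21 genes was called higher in Adn-Lpin1-/- mice, where 6.27% of all genes were, and it was Sgk1, a kinase induced by glucocorticoids, at 17.1 against 9.60 CPM (log2 fold change 0.83, SE 0.20, edgeR adjusted p = 0.00900). The median of the list was 0.43, with 18 of 21 genes above 0, beside 0.01 for all genes. Leaving out WT mouse 4 or Adn-Lpin1-/- mouse 5 of the LFD, or WT HFD mouse 5, made the count 2. Pck1 was 5392 ± 1106 CPM in Adn-Lpin1-/- LFD and 4063 ± 1343 in WT LFD livers (log2 fold change 0.41, edgeR adjusted p = 0.382, or 0.26 without WT mouse 5), and 3496 ± 1674 and 2406 ± 908 CPM on the HFD (0.54, edgeR adjusted p = 0.212). Adn-Lpin1-/- HFD mouse 4 stood apart at 6459 CPM, with the next at 3007, and without it the HFD value was 0.19 (edgeR adjusted p = 0.649). On the HFD none of the list was called by edgeR, where 18.6% of all genes were. At an unadjusted p under 0.05 there were 3, where 33.2% of all genes were so placed. From the list 1 or 2 were called on the HFD when WT LFD mouse 1, 2, 4 or 5 or Adn-Lpin1-/- HFD mouse 3, 4 or 5 was left out. Between the diets, G6pc, the glucose-6-phosphatase of gluconeogenesis, was the 1 gene of the list called, where 1.1% of all genes were called in WT and 2.46% in Adn-Lpin1-/- mice. It fell by 1.55 on the log2 scale with the HFD in Adn-Lpin1-/- mice (SE 0.33, edgeR adjusted p = 0.0168), from 656 to 224 CPM.

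None of the 7 genes whose proteins act on lipins was called by edgeR, a count that with 14.4% and 18.6% of all genes called by genotype is near the background. Ctdnep1, the phosphatase that activates lipins at the nuclear envelope, was 33.9 CPM in WT LFD and 32.1 in Adn-Lpin1-/- LFD livers (log2 fold change -0.08, SE 0.07, interval -0.22 to 0.06, edgeR adjusted p = 0.475). Its partner Cnep1r1 differed by -0.06 (SE 0.09, edgeR adjusted p = 0.711). Mtor, the kinase that phosphorylates lipin 1, was 61.2 against 73.9 CPM (0.27, SE 0.12, edgeR adjusted p = 0.147). Of the 7 regulators tested, 0 were called in any of the 5 comparisons. At an unadjusted p under 0.05 there were 1 by genotype on the LFD and 2 by diet in Adn-Lpin1-/- mice. Of all genes tested, 28.9% had such a p by genotype on the LFD and 16.1% by diet in Adn-Lpin1-/- mice.

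Around the lipin reaction, calls among the genes of phosphatidic acid and diacylglycerol enzymes were near the background. Of 30 tested, 3 were called higher and 1 lower in Adn-Lpin1-/- mice on the LFD, where 6.27% of all genes were called higher and 8.11% lower (14.4% in all). On the HFD 6 were called higher and 0 lower, beside 9.87% and 8.78% of all genes (18.6% in all), and the 6 became 3 without mouse 2 or 5 of the WT or mouse 1 or 2 of the Adn-Lpin1-/- group. The LFD count of 4 became 2 without WT mouse 4. Mogat1, a monoacylglycerol acyltransferase that makes diacylglycerol without a lipin, rose from 0.515 ± 0.527 to 2.87 ± 1.26 CPM on the LFD (log2 fold change 2.47, SE 0.59, edgeR adjusted p = 0.00893) and from 0.541 ± 0.304 to 3.34 ± 1.90 CPM on the HFD (2.63, SE 0.58, edgeR adjusted p = 0.00453). On the HFD its lowest Adn-Lpin1-/- mouse (0.898 CPM) only just passed the highest WT mouse (0.892). Dgat2, which turns diacylglycerol into triglyceride and was the most abundant gene of the list at 317 RPKM, fell by 0.35 on the LFD (SE 0.07, edgeR adjusted p = 0.00242) and was -0.10 on the HFD (edgeR adjusted p = 0.341). Dgkq, a kinase that turns diacylglycerol back into phosphatidic acid, rose on both diets (0.26 and 0.42, edgeR adjusted p = 0.0359 and 0.00183), and Agpat4, a lysophosphatidic acid acyltransferase, rose on the LFD (0.66, edgeR adjusted p = 0.0357). Agpat1 and Agpat2, which make phosphatidic acid, rose on the HFD (0.41 and 0.45, edgeR adjusted p = 0.00678 and 0.0290). With the GC trend removed, Dgkq on the LFD (0.16) and Agpat1 on the HFD (0.20) were no longer called (edgeR adjusted p = 0.245 and 0.121), nor were Agpat4 (0.55) and Agpat2 (0.25) (0.0706 and 0.203). The LFD call of Dgkq was also lost without mouse 1, 4 or 5 of the WT or 1, 3 or 4 of the Adn-Lpin1-/- group, that of Agpat4 without WT mouse 2, 3 or 4 or Adn-Lpin1-/- mouse 2 or 5, and the HFD call of Agpat2 without WT mouse 1, 2 or 5 or Adn-Lpin1-/- mouse 1, 2 or 3 (edgeR adjusted p up to 0.0870, 0.104 and 0.0839). In a fit of the 2 groups alone these 3 calls were lost as well (edgeR adjusted p = 0.0654, 0.0521 and 0.0713), as were those of Dgkq and Agpat4 on the LFD with no limit on low counts (0.0672 and 0.0827) and that of Dgkq with the default limits of edgeR (0.0562). The median of the list was 0.14 on the LFD and 0.16 on the HFD. By diet 0 of 30 were called.

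Partners of PGC-1α were lower where they were called. Of 22 tested, 4 were called lower with the LFD, 5 were called lower with the HFD, and 0 were higher on either diet. Of all genes, 8.11% were lower and 6.27% higher on the LFD (14.4% in all). On the HFD 8.78% of all genes were lower and 9.87% higher (18.6% in all). The 4 and 5 called in all were thus near the background. The median of the list was -0.09 with the LFD and -0.10 with the HFD. Nr3c1, the glucocorticoid receptor, fell from 71.9 ± 5.68 to 52.2 ± 3.17 CPM on the LFD (log2 fold change -0.46, SE 0.07, edgeR adjusted p = 0.000480) and from 79.8 ± 8.07 to 61.7 ± 4.54 CPM on the HFD (-0.37, SE 0.07, edgeR adjusted p = 0.00250). Gabpa, a nuclear respiratory factor subunit, fell by 0.41 on the log2 scale on both diets (edgeR adjusted p = 0.000496 and 0.000440). Creb1, the cAMP response factor, fell by 0.44 and 0.365 (edgeR adjusted p = 0.00886 and 0.0216), and Sirt1, the deacetylase of PGC-1α, fell by 0.37 and 0.34 (edgeR adjusted p = 0.0269 and 0.0310). The Sirt1 calls were lost without LFD mice 1, 2 or 3 of WT or 1, 2 or 4 of Adn-Lpin1-/-, or without HFD mouse 2 of WT or 1, 2, 3 or 5 of Adn-Lpin1-/- (edgeR adjusted p up to 0.0617 and 0.0937), on both diets with no limit on low counts (0.0629 and 0.0541) and on the HFD in a fit of the 2 groups alone (0.0594). Without mouse 2 of either HFD group Creb1 was lost too (up to 0.0652), leaving 3 called. Tfam, the mitochondrial transcription factor, fell on the HFD (-0.28, edgeR adjusted p = 0.0142). With the GC trend removed, Nr3c1 (-0.36 and -0.29) and Gabpa (-0.29 and -0.30) were still called on both diets, whereas Creb1 on the HFD (-0.23) was not (edgeR adjusted p = 0.0713). Ppara, the receptor that works with lipin 1, was 132 and 129 CPM on the LFD and 154 and 152 CPM on the HFD in WT and Adn-Lpin1-/- livers (log2 fold changes -0.03 and -0.02, edgeR adjusted p = 0.935 and 0.955), and Ppargc1b, the paralog of Ppargc1a, was 0.22 and 0.20 (edgeR adjusted p = 0.550 and 0.571). The abundant partners Hnf4a (135 RPKM) and Rxra (103 RPKM) were not called.

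Of 29 PPARα and PGC-1α target genes, 4 were called higher and 0 lower on the LFD, and 3 higher and 1 lower on the HFD. Of all genes, 6.27% were higher and 8.11% lower on the LFD (14.4% in all), and 9.87% were higher and 8.78% lower on the HFD (18.6% in all), so that the 4 called in all on each diet were near the background. Pdk4, which restrains glucose oxidation, rose on both diets (2.07, SE 0.58, and 1.91, SE 0.57, edgeR adjusted p = 0.0211 and 0.0259), as did Ucp2 (0.77 and 1.21, edgeR adjusted p = 0.0343 and 0.00220) and the peroxisomal thiolase Acaa1b (0.76 and 0.74, edgeR adjusted p = 0.0343 and 0.0329). Vnn1, a pantetheinase, rose on the LFD (1.36, edgeR adjusted p = 0.0188) and Creb3l3, a liver transcription factor, fell on the HFD (-0.21, edgeR adjusted p = 0.0344). On the LFD none of the 4 was called without WT mouse 3 and 1 without Adn-Lpin1-/- mouse 2. On that diet 2 were called without WT mouse 2 or 4 or Adn-Lpin1-/- mouse 5. On the HFD 1 was called without WT mouse 2 or Adn-Lpin1-/- mouse 1. There 2 were called without WT mouse 3 or 5 or Adn-Lpin1-/- mouse 2 or 3. For Pdk4, leaving out LFD mouse 2 of the Adn-Lpin1-/- group gave 1.53 (edgeR adjusted p = 0.08415), and leaving out HFD mouse 1 of that group gave 1.13 (0.130). Its LFD call was also lost without WT mouse 2 or 3, and its HFD call without WT mouse 2 or 5, by voom (1.32, adjusted p = 0.150) and in a fit of the 2 groups alone (edgeR adjusted p = 0.0609). Creb3l3 was lost without WT mouse 2 or 3 or Adn-Lpin1-/- mouse 1, 2, 3 or 5 (edgeR adjusted p up to 0.0853) and with no limit on low counts (0.0698), and Acaa1b on the HFD by voom (adjusted p = 0.0510). Acaa1b lost its call without 7 of the single mice on the LFD (WT 1, 2, 3 or 4, Adn-Lpin1-/- 2, 4 or 5) and 6 on the HFD (WT 2, 3 or 5, Adn-Lpin1-/- 1, 2 or 3), and Ucp2 on the LFD without 5 (WT 3, 4 or 5, Adn-Lpin1-/- 2 or 5), with edgeR adjusted p up to 0.0995, 0.0859 and 0.106. The Vnn1 call was lost without WT mouse 3 (0.0557). With the GC trend removed, Ucp2 on the LFD (0.65) and Acaa1b on both diets (0.58 and 0.54) were not called (edgeR adjusted p = 0.0563, 0.0874 and 0.0991), whereas Ucp2 on the HFD kept its call without any single mouse. Fabp1, a fatty acid binding protein and the most abundant of the list at 10660 RPKM, was not called, and Cpt1a, the entry step of mitochondrial fatty acid oxidation, was 0.18 on the LFD and -0.09 on the HFD (edgeR adjusted p = 0.454 and 0.689), given here although the rule for named genes did not pick it. The median of the list was 0.18 on the LFD and 0.09 on the HFD.

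Clock genes were included because Lpin1 levels follow feeding and time of day. Of 17 tested, 4 were called lower on each diet and 0 higher. On the LFD 8.11% of all genes were called lower and 6.27% higher (14.4% in all). On the HFD the shares were 8.78% lower and 9.87% higher (18.6% in all). The medians of the list were -0.25 and -0.14. Clock (-0.55 on both diets, edgeR adjusted p = 0.00503 and 0.00443), Dbp (-0.37 and -0.35, edgeR adjusted p = 0.00609 and 0.00712) and Nr1d2 (-0.43 and -0.36, edgeR adjusted p = 0.00281 and 0.00815) fell on both diets, Tef on the LFD (-0.29, edgeR adjusted p = 0.0130) and Rora on the HFD (-0.34, edgeR adjusted p = 0.0353). Rora lost its call without WT mouse 2 or Adn-Lpin1-/- mouse 1, 2 or 5 of the HFD and with the GC trend removed (edgeR adjusted p up to 0.104 and 0.139), and the other calls of this list stood without any single mouse. Bhlhe40 and Nr1d1, the most abundant of the list, were not called. With Lpin1 the median r of the list between mice was -0.02.

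**Figure D5:**
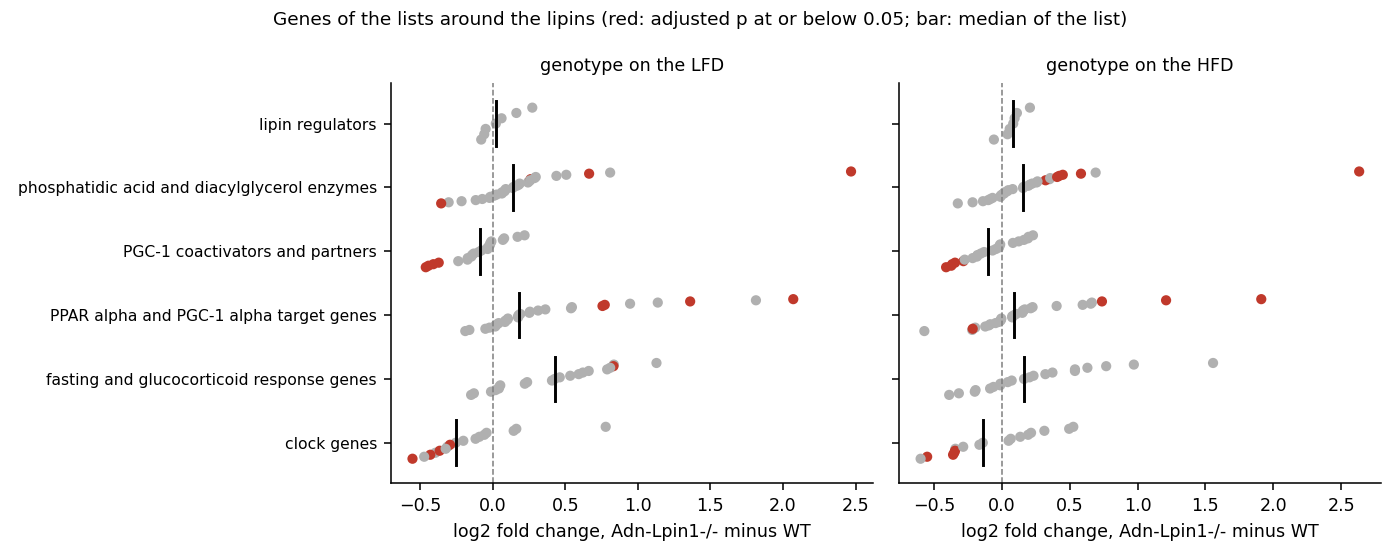
Log2 fold change (x axis, Adn-Lpin1-/- minus WT) of the tested genes of 6 lists on the LFD and the HFD, red where the edgeR adjusted p was at or below 0.05, with the list's median as a bar. The 7 regulators of lipins hold no red point, near the background of 14.4% and 18.6% of all genes called, and the red points of the PGC-1 partners and the clock genes all lie below 0.

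Some markers of hepatocytes, macrophages, stellate cells and endothelial cells differed by genotype, where on the LFD 6.27% of all genes were called higher and 8.11% lower, and on the HFD 9.87% and 8.78%. Hepatocyte markers, led by Alb at 35080 RPKM, held 1 called lower of 10 on the LFD (Asgr1, -0.27, edgeR adjusted p = 0.00820, joined by 1 more without WT mouse 2 or 5, Adn-Lpin1-/- mouse 1 or WT HFD mouse 5) and 6 on the HFD, such as Apoa1 (-0.77, edgeR adjusted p = 0.00319). The 6 became 2 without Adn-Lpin1-/- mouse 1 or 2 and 1 without mouse 3. On the HFD 6 of 8 macrophage markers were called higher, with Csf1r, the receptor of a macrophage growth factor, at 28.2 and 55.2 CPM (edgeR adjusted p = 0.0109), and their sum was 169 ± 16.3 CPM in WT and 291 ± 106 in Adn-Lpin1-/- livers, and without Adn-Lpin1-/- mouse 2 the 6 became 2. On the LFD none was called by edgeR, with 1 at an unadjusted p under 0.05 (1 was called without WT LFD mouse 1 or mice 1 or 4 of the LFD or 2 or 4 of the HFD Adn-Lpin1-/- groups), and the sums were 178 ± 44.6 and 210 ± 57.4 CPM. Stellate cell markers, led by Ecm1, held 4 called higher of 9 with the LFD and 3 with the HFD (0 without Adn-Lpin1-/- mouse 1, 1 without mouse 2 of that group or 2 or 5 of WT), and endothelial markers, led by Clec4g, 3 and 4 of 7 (down to 1 without WT mouse 3 or Adn-Lpin1-/- mouse 2 or 5 on the LFD, and to 2 without WT mouse 1, 2 or 5 or Adn-Lpin1-/- mouse 2 on the HFD). No gene of 5 tested of the cholangiocyte list, led by Spp1, or of 2 tested of the lymphocyte list, led by Trac, was called. At an unadjusted p under 0.05 there were 3 and 0 with the LFD and none with the HFD. Of all genes tested, 28.9% had such a p on the LFD and 33.2% on the HFD. Of the intestinal list, Fabp2 was called higher on the LFD (0.39, edgeR adjusted p = 0.0244), and not without WT mouse 2 or 3 or Adn-Lpin1-/- mouse 2 or 5. None of 6 skeletal muscle markers passed the limit on low counts, and Mylpf, the highest, was at 0.720 RPKM. Of the adipocyte list only Cfd and Adrb3 were tested. On the LFD Cfd was called higher and Adrb3 lower, and on the HFD only Cfd was called, again higher. Cfd was 0.831 and 11.3 CPM on the LFD and 5.83 and 81.8 CPM on the HFD in WT and Adn-Lpin1-/- livers (edgeR adjusted p = 0.0377 and 0.0150). Its LFD call was lost without WT mouse 1, 2, 3 or 4 or Adn-Lpin1-/- mouse 2 or 5 and by voom (adjusted p = 0.330, or 0.147 with the pools). Cfd had no matching level of Adipoq, whose highest group mean in Adn-Lpin1-/- mice was 0.0676 CPM. Summed hepatocyte markers had r = 0.47 with Lpin1 and 0.27 with Lpin2 across mice, and the part of these cell types in the values of the members was not tested.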

How the data were processed

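Liver RNA of 20 mice in 4 groups of 5 and 4 libraries of RNA pooled from a group's mice were analysed. The authors aligned reads with STAR 2.5.1a to GRCm38 and counted uniquely aligned reads on Ensembl genes with featureCounts 1.4.6-p5, with a strand setting not given in the sources used here. They deposited raw counts, CPM and RPKM for 41388 genes. Levels between genes used the deposited RPKM, the deposited CPM was not used, and all tests used the deposited counts. The 355 ribosomal RNA genes (0.265% to 0.465% of counts) were left out, and the 13052 genes over 1 CPM in at least 4 of 20 libraries were tested with edgeR 4.0.16 (R 4.3.3), with TMM scaling, a mean per group and the quasi-likelihood test, adjusted over all genes at a threshold of 0.05. The study's own method, voom with quality weights, was an alternative (limma 3.58.1), as were DESeq2 1.42.0, other limits on low counts, removal of a GC trend, a replicate block and each mouse left out. Pools repeat the same mice and entered only 1 alternative. Relations used log2 CPM with 2 prior counts in Python 3.11.15 with scipy 1.17.1. The scripts were tested on simulated data. The members and lists were chosen with earlier results of these data known. Genes named were the members, their 5 nearest genes by r, the called genes of smallest adjusted p of each list (up to 4 per comparison), the 2 most abundant of each list, and 5 chosen partners, and 1 gene that this rule picked is not reported here. Of the listed symbols, Prmt1 was not matched. Promoters came from RefSeq on GRCm38.p6, where all 4 members matched. Regression on total count, scaling factor or GC trend in the relations was chosen after seeing the data. P-values of the fits set a difference between groups against the spread between mice of a group. Those of the relations come from permutations of mice within groups.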

Additional observations from a re-analysis of the deposited data

Results flagged for a closer look

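In each group of 5 mice, the gap between the highest or lowest mouse and its nearest neighbour was set against the range of the group for 16 of the genes described, 64 groups in all, of which chance flags about 1 in 20. A mouse stood apart in 3, which is near the share that chance flags. Lpin3 in mouse 3 of the Adn-Lpin1-/- LFD group was 9.49 CPM, with the next at 7.62, and without it the genotype difference on the LFD was 0.26 on the log2 scale (edgeR adjusted p = 0.145). Pdk4 in the same group reached 25.0 CPM in mouse 2, with the next at 10.3, and without that mouse its log2 fold change on the LFD was 1.53 (edgeR adjusted p = 0.08415). Pck1 in the Adn-Lpin1-/- HFD group reached 6459 CPM in mouse 4, with the next at 3007, and without that mouse its log2 fold change on the HFD was 0.19 (edgeR adjusted p = 0.649).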

How the results depend on the processing

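All 20 member comparisons kept their direction and their side of the threshold under most alternatives, 393 of 400 with 1 mouse left out and 168 of 176 with another setting, and the 16 mean levels moved by less than 1 SD under each. On the LFD, Lpin3 passed by DESeq2 (0.3453, adjusted p = 0.0319) and by voom (0.4036, 0.0201). With voom and the pools, which repeat RNA of the same mice and so give p-values that are too small, Lpin2 on the LFD (0.4361), Ppargc1a by diet in WT (-0.3786) and Adn-Lpin1-/- (-0.3195) and Lpin1 by diet in Adn-Lpin1-/- mice (-1.09) passed. Lpin3 turned in sign by diet in WT with voom (0.009282) and in the interaction with the pools (0.002228). Leaving out each mouse gave 0.2589 to 0.4397 for Lpin3 on the LFD, which passed without WT LFD mouse 5 or Adn-Lpin1-/- LFD mouse 4, -0.02634 (without Adn-Lpin1-/- HFD mouse 3) to 0.6926 (without WT HFD mouse 4) for Lpin1 on the HFD, -0.1032 to 0.07031 for Lpin3 by diet in WT, -0.1782 to 0.01345 for the Lpin3 interaction and -0.07294 to 0.2157 for the Ppargc1a interaction. The cause of these changes was not tested.

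Genes called by genotype numbered 1208 (without WT LFD mouse 3) to 1954 on the LFD and 1477 (without Adn-Lpin1-/- HFD mouse 2) to 2750 on the HFD with 1 mouse left out, and by diet 55 to 289 in WT and 123 to 383 in Adn-Lpin1-/- mice. With voom and the pools together, a change of both method and libraries, they were 4177, 4763, 1927, 2327 and, for the interaction, 190. DESeq2 called 400 and 577 by diet and 28 for the interaction, voom 670 by diet in WT, and a fit of only the 2 groups compared 70 and 155 by diet. For the relations, Lpin1 and Lpin2 ranged from 0.5235 to 0.6833, Lpin1 and Ppargc1a from 0.4661 to 0.6982 and Lpin3 and Ppargc1a from -0.2139 to 0.07992 with 1 mouse left out. On log2 of RPKM plus 1 the first 2 were 0.5645 and 0.5168 and with the scaling factor regressed out 0.4523 and 0.5584, all short of the threshold, and Lpin3 and Ppargc1a turned to 0.06145 with the total count regressed out. Lpin2 and Lpin3 passed under every alternative run, all of them with group means removed. Of 41 calls of named list genes, 16 were lost without some single mouse and 14 under some other setting.

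Replicate numbers did not pair the mice: of 30 same-numbered pairs 6 had r over 0.1, with a mean of -0.023 against 0.006 for other pairs. With the replicate number as a block no member was called, Lpin3 on the LFD was 0.35 (edgeR adjusted p = 0.0608), and 1532 (LFD) and 2012 (HFD) genes were called by genotype, with 90 (WT) and 214 (Adn-Lpin1-/-) by diet. The block ended 7 calls of named list genes, those of Acaa1b on both diets (edgeR adjusted p = 0.0659 and 0.0612), of Cfd on the LFD (0.0831) and of Pdk4 (0.0628), Agpat2 (0.0546), Sirt1 (0.0542) and Rora (0.0574) on the HFD. With 162 to 634 counts per mouse, counting error limits Lpin3 more than the other members.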
